A study of Homo sapiens with 24 samples.

Results

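The mRNAs of 10 alpha- and beta-tubulin genes were followed in HepG2 hepatoma cells exposed to a proteasome inhibitor and to compounds acting on the integrated stress response. The members were the rows of the count matrix whose gene name was TUBA1A, TUBA1B, TUBA1C, TUBA4A, TUBB, TUBB2A, TUBB2B, TUBB3, TUBB4B or TUBB6. These were 4 alpha-tubulin and 6 beta-tubulin genes, 10 of the 18915 genes in the matrix, and 9 of the 10 passed the filter on low counts (all except TUBB3). HepG2 is a long-established human liver cancer line, so each group is a set of cultures of 1 line and not of separate donors. The control cultures received DMSO as vehicle. Single treatments were bortezomib at 50 nM, nelfinavir at 20 µM or ISRIB at 50 nM, and the co-treatments joined bortezomib with either of the other compounds at these doses, always for 10 h in fresh growth medium. There were 4 biological replicates in each of the 6 groups, 24 libraries in all, made with a 3′ mRNA-Seq kit in which reads start near the poly(A) tail. Bortezomib blocks the proteasome, ISRIB acts on eIF2B to blunt the integrated stress response, and nelfinavir is an HIV protease inhibitor that activates that response.

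Alpha- and beta-tubulin form the heterodimer that polymerizes into microtubules, and the human genes encode isotypes that differ mainly in their C-terminal tails and in the tissues where they are made. Newly made tubulin is folded by prefoldin, the TRiC chaperonin and the tubulin cofactors TBCA to TBCE. Tubulin mRNA is known for autoregulation, in which an excess of free dimers leads TTC5 to bind the first residues of the nascent chain at the ribosome, and SCAPER and the CCR4-NOT deadenylase are then recruited to degrade the message.

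The opening codons are shown because they encode the first residues of the nascent chain, which TTC5 binds. They encode Met-Arg-Glu-Cys in all alpha members and Met-Arg-Glu-Ile in all beta members, so codon differences within a class are synonymous. The start codon is in lower case and the next 3 codons are in capitals, read from the GENCODE model of each gene on GRCh37, and TUBA1B stands for TUBA1A, TUBA1B and TUBA1C, which share the same 12 bases.
TUBA1B: atgCGTGAGTGC
TUBA4A: atgCGTGAATGC
TUBB: atgAGGGAAATC
TUBB2A: atgCGCGAGATC
TUBB2B: atgCGTGAGATC
TUBB6: atgAGGGAGATC
TUBB and TUBB4B share the same 12 bases, as do TUBB3 and TUBB6. The run lies at chr12:49525072-49525083 (minus strand) in TUBA1B, at chr2:220118569-220118580 (minus) in TUBA4A, at chr6:30688284-30688295 (plus) in TUBB, at chr6:3157686-3157697 (minus) in TUBB2A, at chr6:3227766-3227777 (minus) in TUBB2B and at chr18:12308292-12308303 (plus) in TUBB6. Each of the 10 canonical transcripts has 4 exons. Within the coding sequence, TUBA1A and TUBA1B were 97.2% identical and TUBB2A and TUBB2B 98.2% identical, while TUBA4A was 85.7% identical to TUBA1B. The last 500 transcript bases, where 3′ reads fall, differed more, with 76.6% identity for TUBA1A and TUBA1B and 51.6% for TUBB2A and TUBB2B. Within those bases, 302 bases of TUBB2A matched the TUBB2B locus at 99.7% identity but ended 198 bases before the transcript end. In TUBA1A, 285 bases matched TUBA1B at 97.9% and ended 215 bases before the end. The sources used here do not say how reads were split among these copies, so the counts of TUBA1A, TUBA1B, TUBB2A and TUBB2B are uncertain to that extent, as are those of TUBB3, in which 159 bases matched TUBB2A, TUBB2B and TUBB4B at 97.5%.

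The libraries held from 5154533 to 6943164 counts. Total counts averaged 6535000 ± 435000 in DMSO and 5610000 ± 271000 with bortezomib (SD, n = 4 each). The number of genes detected was 14450 ± 56.4 in DMSO and 13010 ± 116 with bortezomib, and ranged from 12906 to 13291 over the 12 libraries with bortezomib. Mitochondrially encoded genes took 21.5% ± 1.32 of the counts in DMSO, 33.8% ± 1.19 with bortezomib, 27.2% ± 2.26 with bortezomib plus nelfinavir and 36.1% ± 3.13 with bortezomib plus ISRIB. These properties of the libraries moved with bortezomib, and their part in the tubulin results was not tested. The identity of the cells was checked with markers. All 10 hepatocyte markers passed the filter, ALB was the most abundant over all libraries (though AFP, at 2977 CPM, stood above ALB, at 2929 CPM, on average with ISRIB), and their summed level was 12710 to 13890 CPM (counts scaled to a common library size with TMM factors) in DMSO, 8808 to 9592 with bortezomib, 5953 to 7859 with bortezomib plus nelfinavir and 8941 to 10880 with bortezomib plus ISRIB. Of the neuronal markers, 2 of 5 were in the table, 1 was tested (SYP), and their summed level was at most 2.34 CPM in any library. The 3 fibroblast markers in the table summed to at most 1.26 CPM and the 1 blood marker, CD79A, to at most 0.681 CPM. Of the 3 endothelial markers listed, 0 were in the table, so these were not analysed here.

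Tubulin mRNA in vehicle-treated HepG2 cells was made up almost wholly of 4 isotypes. In DMSO, TUBA1B held 43.6% ± 1.52 of the counts of the 10 members, TUBB 23.8% ± 0.341, TUBA1C 21.95% ± 1.08 and TUBB4B 9.80% ± 0.621 (SD, n = 4). These are shares of counts from 3′ libraries, in which a transcript gives reads near its end whatever its length, so counts were not divided by length. TUBB2A held 0.664% ± 0.0543, and TUBA1A, TUBA4A, TUBB2B, TUBB3 and TUBB6 together held less than TUBB2A. The 10 members took from 0.494% to 0.539% of all counts in the DMSO libraries and from 0.342% to 0.391% in the bortezomib libraries, without overlap. Over nuclear-encoded genes alone, the shares were 0.617% to 0.683% and 0.508% to 0.586%, also without overlap. The lower share depended on the scaling. After TMM scaling, the summed alpha-tubulin level was 2814 ± 161 CPM in DMSO and 2725 ± 229 CPM with bortezomib. The summed beta-tubulin level was 1470 ± 65.5 and 1502 ± 87.2 CPM, and the ranges overlapped in both classes. With bortezomib, TUBA1B held 38.7% ± 0.450 of tubulin counts and TUBB4B 7.03% ± 0.336, while TUBA1C held 25.4% ± 1.17, TUBB 27.01% ± 1.32 and TUBB2A 1.26% ± 0.220. No test was run on these shares.

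**Figure D1:**
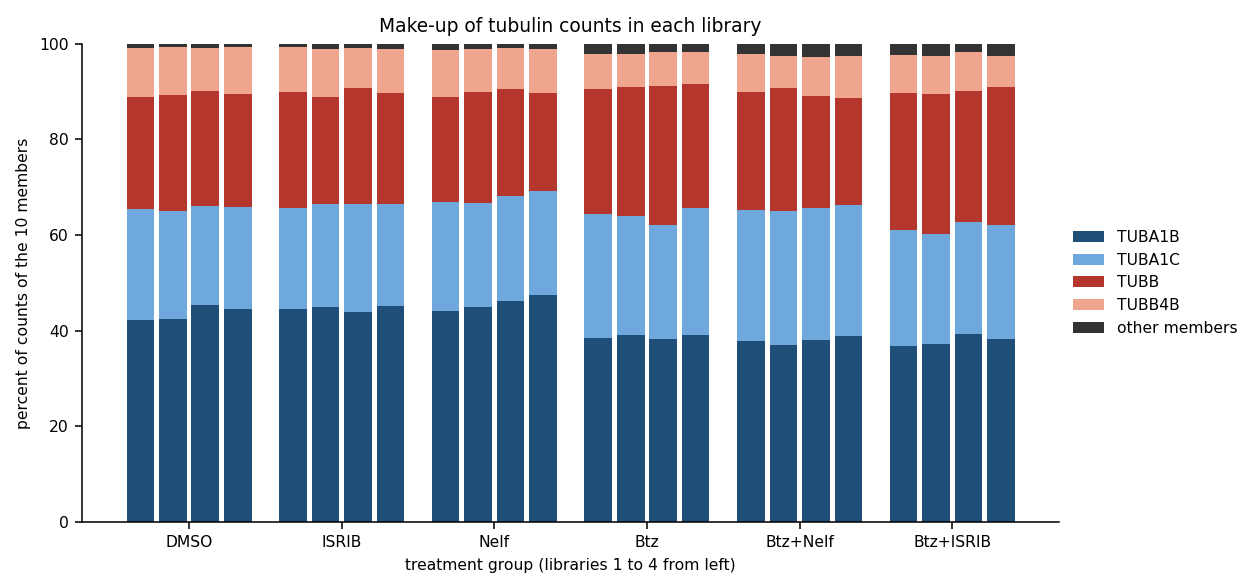
Stacked bars give the percent of the counts of the 10 members (y axis, 0 to 100) that belonged to TUBA1B, TUBA1C, TUBB, TUBB4B and all other members in each of the 24 libraries (x axis, 4 bars per treatment group). TUBA1B held 43.6% on average in DMSO and 38.7% with bortezomib, and the black segment of minor isotypes was taller in the 12 libraries with bortezomib.

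Among the alpha-tubulins, TUBA4A, an isotype prominent in platelets and brain, stood at 1.16, 0.521, 0.42 and 0.49 CPM in DMSO replicates 1 to 4 (10, 4, 3 and 4 counts). In bortezomib replicates 1 to 4 it stood at 13.9, 4.85, 12 and 8 CPM (65, 25, 57 and 37 counts). The bortezomib libraries all lay above the DMSO libraries. TUBA4A stood at 7.4, 11.6, 16.9 and 15.8 CPM with bortezomib plus nelfinavir and at 13.1, 9.84, 8 and 7.65 CPM with bortezomib plus ISRIB. It stood at 0.631, 1.18, 1.13 and 0.863 CPM with ISRIB and at 0.239, 0.903, 0.26 and 1.04 CPM with nelfinavir. The order of the group means was therefore split into 3 groups with bortezomib, whose ranges overlapped one another, and 3 groups without it, whose ranges overlapped one another, with no overlap between the sets.

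TUBA1A, an alpha-tubulin prominent in developing neurons, was a minor transcript at 1.86, 3.12, 3.64 and 2.7 CPM in DMSO and 6.2, 2.13, 3.17 and 6.92 CPM with bortezomib. It stood at 11.6, 10.3, 6.32 and 17 CPM with bortezomib plus ISRIB, against 2.11, 4.77, 2.36 and 3.75 CPM with bortezomib plus nelfinavir. Bortezomib plus ISRIB had the highest mean of the 6 groups (11.3 ± 4.43), though its lowest library lay inside the range of bortezomib alone. All neighbours in the order of TUBA1A overlapped, down to nelfinavir at 1.87 ± 1.37 CPM. TUBA1B and TUBA1C, the alpha-tubulins made in most dividing cells, carried the bulk of alpha-tubulin mRNA. TUBA1B stood highest with ISRIB (2293 ± 345 CPM, range 2032 to 2801), without overlap with DMSO (1684 to 2010), and the remaining neighbours in its order overlapped, down to bortezomib at 1638 ± 127 CPM. TUBA1C ranged from 921 to 958 CPM in DMSO and from 997 to 1231 CPM with bortezomib. Its 3 groups with bortezomib and ISRIB alone overlapped one another in the order of means, the bortezomib plus ISRIB group (1023 to 1113) did not overlap DMSO after TMM scaling, and DMSO overlapped nelfinavir (736 to 923).

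TUBB2B, a beta-tubulin of the nervous system, stood at 0.232, 0.651, 1.26 and 0.613 CPM in DMSO (2, 5, 9 and 5 counts) and at 11.8, 11.4, 5.28 and 7.56 CPM with bortezomib (55, 59, 25 and 35 counts). With nelfinavir it stood at 2.63, 2.58, 1.69 and 2.99 CPM, and with ISRIB at 1.26, 1.84, 1.55 and 1.11 CPM. The nelfinavir libraries lay above all DMSO libraries and below all bortezomib libraries. TUBB2B stood at 11.4, 8.86, 13.2 and 14.5 CPM with bortezomib plus nelfinavir and at 7.12, 6.28, 6.74 and 12.6 CPM with bortezomib plus ISRIB. In the order of means the 3 groups with bortezomib overlapped as neighbours, did not overlap nelfinavir, and nelfinavir, ISRIB and DMSO overlapped as neighbours.

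TUBB2A, the closest relative of TUBB2B, stood at 25, 25.9, 32.2 and 31 CPM in DMSO and at 45.3, 66.3, 47.1 and 53.4 CPM with bortezomib. It reached 55.8, 72, 104 and 67.8 CPM with bortezomib plus nelfinavir and 70.6, 81.3, 58.7 and 76 CPM with bortezomib plus ISRIB. The bortezomib and DMSO libraries did not overlap, but each pair of neighbours in the order of the 6 means did. TUBB6, a beta-tubulin of many non-neural tissues, stood at 0.116, 0.911, 1.12 and 0.613 CPM in DMSO, at 1.92, 1.16, 2.75 and 2.59 CPM with bortezomib and at 4.65, 4.54, 3.93 and 4.5 CPM with bortezomib plus nelfinavir. Its DMSO counts were 1, 7, 8 and 5, and its bortezomib counts 9, 6, 13 and 12. The lowest bortezomib library lay just above the highest DMSO library, and bortezomib plus nelfinavir and bortezomib plus ISRIB (2.95 to 6.17 CPM) overlapped each other and lay above both.

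TUBB4B, a broadly made beta-tubulin that is also a main component of cilia, stood at 416, 429, 399 and 433 CPM in DMSO and at 290, 289, 301 and 306 CPM with bortezomib. It stood at 372, 307, 368 and 341 CPM with nelfinavir and at 460, 456, 537 and 449 CPM with ISRIB. The ISRIB libraries lay above DMSO and the DMSO libraries above nelfinavir, while nelfinavir, the 2 co-treatments and bortezomib overlapped as neighbours in that order. TUBB, the main beta-tubulin of dividing cells, stood at 934, 1027, 1067 and 1057 CPM in DMSO, at 1031, 1130, 1202 and 1201 CPM with bortezomib and at 806, 784, 945 and 767 CPM with nelfinavir. Its 6 group means ran from 825 ± 81.1 CPM with nelfinavir to 1284 ± 14 CPM with bortezomib plus ISRIB, and each overlapped the next. TUBB3, the beta-tubulin used as a neuronal marker, had 2 counts over the 4 DMSO libraries, 1 with ISRIB and 2 with nelfinavir. It had 0 counts in the 4 bortezomib libraries, which allows a level of up to 0.156 CPM over the group (3 counts), and 0 in both co-treatments, which allows up to 0.153 CPM with nelfinavir and 0.166 CPM with ISRIB. TUBB3 was not tested, and these limits cover counting error only.

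Bortezomib raised TUBA4A, TUBB2B, TUBB2A and TUBB6 and lowered TUBB4B relative to DMSO. TUBA4A rose 14.2-fold (log2 fold change 3.83 ± 0.415 SE, adjusted p = 1.75e-09) and TUBB2B 13.1-fold (3.71 ± 0.378, adjusted p = 4.61e-10) in edgeR's quasi-likelihood test. TUBB2A rose 1.86-fold (0.90 ± 0.166, adjusted p = 2.66e-05) and TUBB6 3.05-fold (1.61 ± 0.508, adjusted p = 0.00804), and TUBB4B fell 1.41-fold (log2 fold change −0.50 ± 0.103, adjusted p = 0.000119). In TUBA4A, TUBB2B, TUBB2A and TUBB4B the 4 bortezomib libraries did not overlap the 4 DMSO libraries. In TUBB6 the separation depended on the scaling: bortezomib replicate 2 lay at 1.16 CPM above DMSO replicate 3 at 1.12 CPM after TMM, but it had 6 of 5995495 counts against 8 of 5950624. In the count over the family, 4 of the 9 tested members were called higher, against 27.6% of all 12685 genes tested, and 1 of 9 was called lower, against 25.8%. The median log2 fold change was 0.70 over the 9 members (0.45 over 4 alpha-tubulins and 0.90 over 5 beta-tubulins) and 0 over all genes. Each member counts once in these medians whatever its level, and 0.70 is the estimate of TUBA1A, which was not called. TUBA1A (0.70 ± 0.426, adjusted p = 0.169), TUBA1B (−0.19 ± 0.0988, adjusted p = 0.101), TUBA1C (0.19 ± 0.101, adjusted p = 0.108) and TUBB (0.16 ± 0.0973, adjusted p = 0.168) did not pass the threshold, with 95% intervals of −0.39 to 0 for TUBA1B and −0.01 to 0.39 for TUBA1C. In bulk RNA, fewer cells making a transcript and less transcript per cell cannot be told apart. The 4 members that rose were all minor transcripts in DMSO, and the estimates of the 4 abundant members ran from 1.12-fold to 1.41-fold in either direction, those of TUBA1C and TUBB turning negative under library totals.

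With bortezomib, the directions of TUBA1C and TUBB depended on the scaling, and those of TUBA1B and TUBB4B did not. When library totals alone were used in place of TMM factors, the median of all genes moved from 0 to −0.50, and higher calls made up 19.2% of all calls in place of 51.6% (11.7% of all genes were then called higher and 49.4% lower). TUBA1C (−0.31, adjusted p = 0.00793) and TUBB (−0.34, adjusted p = 0.00192) were then called lower, TUBA1B was called lower (−0.69, adjusted p = 2e-07), TUBB4B moved to −1, TUBB2A to 0.40 (adjusted p = 0.0317), and TUBB6 was no longer called (1.12, adjusted p = 0.0557, with the adjusted p of TUBB6 between 0.00306 and 0.0557 over the 9 alternatives). Taken relative to the median of all genes, these values were 0.19 for TUBA1C, 0.16 for TUBB and −0.20 for TUBA1B. In a model of the compared groups alone TUBA1C was called higher (0.16, adjusted p = 0.042), and its bortezomib libraries all lay above DMSO after TMM scaling. With 1 library left out, the estimate of TUBA1C ran from 0.066 to 0.196 and that of TUBB from 0.081 to 0.18, and neither was called. TUBA1B was also called lower without mitochondrially encoded genes (−0.24, adjusted p = 0.0414), with upper-quartile factors (−0.28, adjusted p = 0.0205), with the replicate number as a block (−0.19, adjusted p = 0.0382), with no filter (−0.27, adjusted p = 0.0123), in a model of the compared groups alone (−0.22, adjusted p = 0.00931), without DMSO replicate 2 (−0.26, adjusted p = 0.0482) and without bortezomib replicate 4 (−0.30, adjusted p = 0.0256), and its adjusted p ran from 2e-07 to 0.121 over the 9 alternatives. The calls of TUBA4A, TUBB2B and TUBB2A as higher and of TUBB4B as lower held under all 9 alternatives and without any single library.

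**Figure D2:**
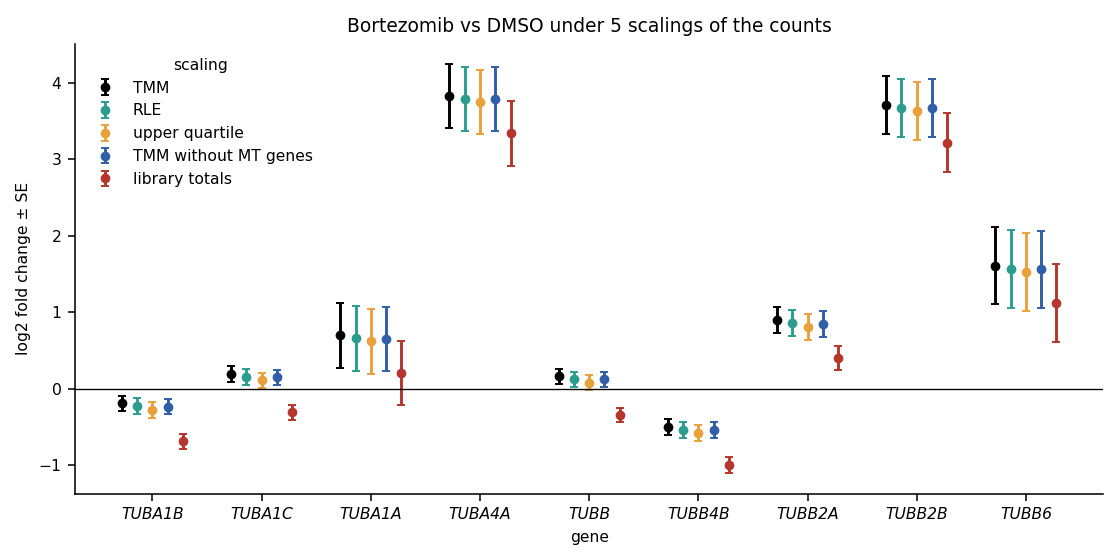
Points give log2 fold changes of bortezomib against DMSO (y axis) with SE bars for 9 tubulin genes (x axis) under 5 scalings of the counts, marked by colour. TUBA4A lay between 3.34 and 3.83 and TUBB2B between 3.22 and 3.71, while TUBA1C and TUBB changed sign with library totals (−0.31 and −0.34).

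The sequences upstream of 4 of the 5 members called with bortezomib are printed to show what letters they hold. RefSeq promoters (GRCh38.p14, 250 bases before to 50 after the start) were matched for 10 of 10 members, with 15 entries because some genes have several starts. The motifs searched on both strands were GAANNTTC and TTCNNGAA (spaced pairs of heat shock units), TGATGNAA (C/EBP-ATF), TGACNNNGC (antioxidant element), CCAAT and GGGCGG (GC box). The 250 bases before the start are shown on the gene's strand for TUBA4A (chr2:219253919-219254168), TUBB2B (chr6:3227654-3227903) and TUBB2A (chr6:3157545-3157794), all on the minus strand, and for TUBB4B (chr9:137241037-137241286) on the plus strand, with any match to these motifs in capitals.
TUBA4A: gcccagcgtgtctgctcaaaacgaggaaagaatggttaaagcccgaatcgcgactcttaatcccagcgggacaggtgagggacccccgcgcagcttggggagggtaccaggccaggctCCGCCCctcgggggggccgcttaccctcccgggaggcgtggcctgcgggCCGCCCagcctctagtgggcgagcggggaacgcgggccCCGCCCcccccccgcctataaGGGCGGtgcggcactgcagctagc
TUBB2B: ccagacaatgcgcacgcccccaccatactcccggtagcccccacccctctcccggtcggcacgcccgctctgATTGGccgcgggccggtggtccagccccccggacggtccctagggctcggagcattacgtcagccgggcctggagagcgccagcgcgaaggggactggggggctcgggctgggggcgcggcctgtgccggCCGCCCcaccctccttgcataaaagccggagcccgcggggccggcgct
TUBB2A: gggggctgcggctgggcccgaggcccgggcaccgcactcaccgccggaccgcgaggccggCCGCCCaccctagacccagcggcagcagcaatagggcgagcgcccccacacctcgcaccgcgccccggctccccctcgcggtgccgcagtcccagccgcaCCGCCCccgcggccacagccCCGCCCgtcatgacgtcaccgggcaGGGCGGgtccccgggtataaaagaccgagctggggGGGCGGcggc
TUBB4B: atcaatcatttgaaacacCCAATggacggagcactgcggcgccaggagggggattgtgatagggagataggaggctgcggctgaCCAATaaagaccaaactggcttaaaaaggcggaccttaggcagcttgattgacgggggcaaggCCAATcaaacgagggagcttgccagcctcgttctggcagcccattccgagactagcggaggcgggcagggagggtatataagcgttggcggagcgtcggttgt
TUBA4A held 4 GC boxes and TUBB2A 5, TUBB2B held 1 GC box, 1 CCAAT and, 33 bases after the start, 1 antioxidant match, and TUBB4B held 3 CCAAT. TUBB6, not printed, has 2 entries, of which 1 held 6 GC boxes and 1 CCAAT and the other no match to these motifs. Among all 35116 promoter entries, 45% held a GC box, 34.6% CCAAT and 13.3% the antioxidant letters, against 9, 9 and 2 of the 15 tubulin entries. GAANNTTC was found in 3 tubulin entries, from TUBA1C and TUBB, and in 6.77% of all promoters. TTCNNGAA and TGATGNAA were in 0 of the 15 tubulin entries, and in 7.74% and 3.62% of all promoters. A match describes letters and not a bound site, and a missing match says only that the letters are not in this window.

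In nelfinavir alone, TUBB2B rose and TUBB fell relative to DMSO. TUBB2B rose 3.61-fold (log2 fold change 1.85 ± 0.411, adjusted p = 0.00109), and all 4 nelfinavir libraries lay above the 4 DMSO libraries. TUBB fell 1.24-fold (log2 fold change −0.31 ± 0.0973, adjusted p = 0.0224), with the lowest DMSO library (934 CPM) inside the nelfinavir range. Of the 9 tested members 1 was called higher, against 10.4% of all genes, and 1 lower, against 8.84%. The median over the members was −0.13, against 0.01 over all genes. TUBB4B (−0.27 ± 0.102, adjusted p = 0.0571) did not pass the threshold although its nelfinavir libraries all lay below DMSO, and its adjusted p ran from 0.00414 to 0.0567 over the 9 alternatives, of which 6 called it lower. TUBA1A (−0.58 ± 0.444), TUBA1B (−0.12 ± 0.0987), TUBA1C (−0.18 ± 0.101), TUBA4A (−0.13 ± 0.562), TUBB2A (0.22 ± 0.165) and TUBB6 (0.04 ± 0.541) had adjusted p from 0.257 for TUBA1C to 0.973 for TUBB6. The call of TUBB as lower was lost without DMSO replicate 3 (adjusted p = 0.0669) or 4 (0.0613), and without nelfinavir replicate 1 (0.0557), 2 (0.0631) or 4 (0.0823).

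In ISRIB alone, the 9 tested members all had log2 fold changes above 0, and none passed the threshold. The estimates were 0.29 ± 0.0987 for TUBA1B, 0.25 ± 0.101 for TUBA1C, 0.24 ± 0.0971 for TUBB, 0.18 ± 0.102 for TUBB4B, 0.41 ± 0.164 for TUBB2A and 1.08 ± 0.445 for TUBB2B. By edgeR, 0 of 9 members were called higher and 0 lower, as were 0% of all genes in either direction. At an unadjusted p under 0.05, 5 members were higher and 0 lower, against 256 higher and 447 lower of all genes, and DESeq2 called 0 members and 1 gene higher and 20 lower of all genes. The median over the members was 0.29, against 0 over all genes. ISRIB replicate 3 was the highest of the 4 in TUBA1B (2801 CPM), TUBA1C (1437 CPM), TUBB (1532 CPM), TUBB2A (50.4 CPM) and TUBB4B (537 CPM), and the members took 0.742% of its counts against 0.558% to 0.577% in the other ISRIB libraries. Without ISRIB replicate 3 the estimates were 0.18 for TUBA1B, 0.10 for TUBA1C and 0.11 for TUBB, and without DMSO replicate 1 that of TUBB6 was −0.15. Over all fits with 1 library left out, the estimates ran from 0.249 to 0.537 for TUBB2A and from 0.118 to 0.207 for TUBB4B.

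**Figure D3:**
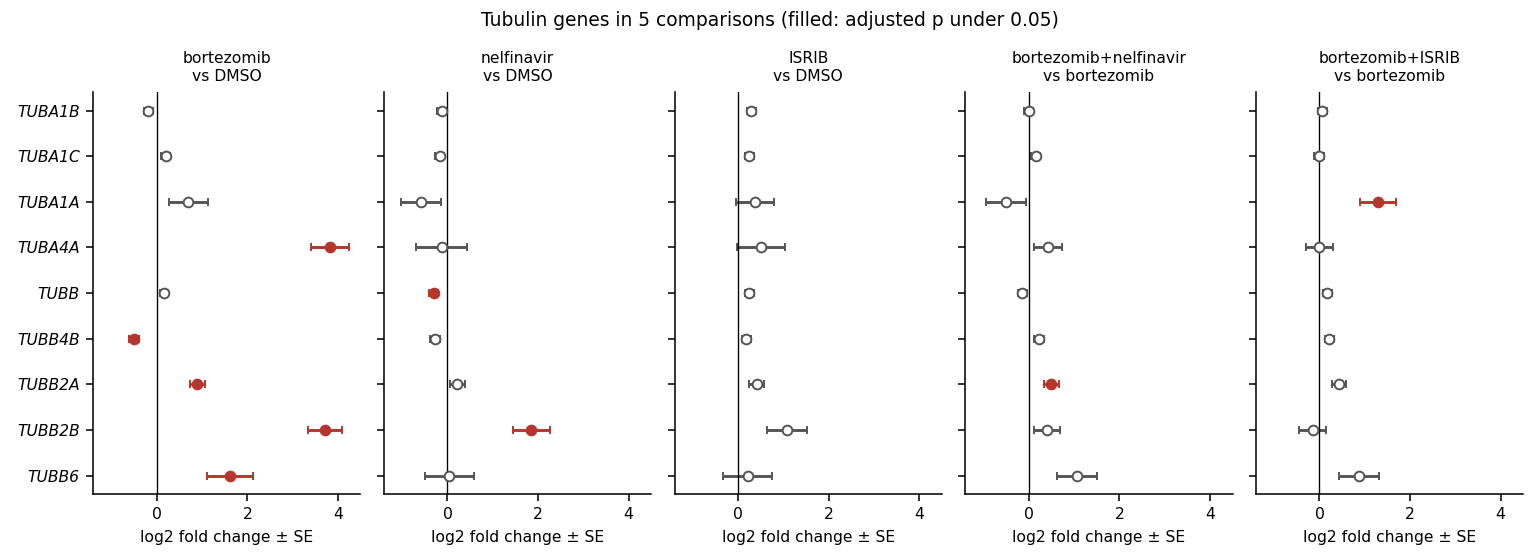
Points give log2 fold changes (x axis) with SE bars for 9 tubulin genes (y axis) in 5 comparisons of 4 against 4 libraries, one panel each, and filled red points passed an adjusted p of 0.05. TUBA4A and TUBB2B lay at 3.83 and 3.71 with bortezomib against DMSO, and all 9 points lay right of 0 with ISRIB alone without passing the threshold. TUBB and TUBA1C in the bortezomib panel fell below 0 when library totals replaced TMM factors. The SE bar of TUBA4A with ISRIB added to bortezomib is not reliable, since its estimate is 0.

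TUBB2A was called higher when nelfinavir was added to bortezomib, and TUBA1A when ISRIB was added, each compared with bortezomib alone. These comparisons share the bortezomib libraries, as the single treatments share the DMSO libraries. The estimate of TUBB2A was similar with ISRIB added (0.43 ± 0.162, adjusted p = 0.0776), so its call does not set the 2 compounds apart. With nelfinavir, TUBB2A rose 1.41-fold (log2 fold change 0.50 ± 0.162, adjusted p = 0.0198), with overlapping libraries. In edgeR's test 1 of 9 members was called higher, against 15.6% of all genes, and 0 lower, against 13.4%, with 3 higher and 0 lower at an unadjusted p under 0.05 and 2 higher and 0 lower by DESeq2. The member median was 0.22, against −0.02 over all genes. TUBB6 was 2.09-fold higher without passing (1.06 ± 0.440, adjusted p = 0.0675), although its co-treated libraries all lay above those of bortezomib alone, and DESeq2 called it (1.08, adjusted p = 0.0324, the lowest of 9 alternatives that ran up to 0.101). TUBA4A (0.42 ± 0.312, adjusted p = 0.327), TUBB2B (0.41 ± 0.286, adjusted p = 0.293), TUBA1A (−0.50 ± 0.442, adjusted p = 0.422), TUBA1B (0.00 ± 0.0989), TUBA1C (0.16 ± 0.101) and TUBB (−0.14 ± 0.0974) did not pass. The TUBB2A call was lost without bortezomib replicate 1 (adjusted p = 0.0514), without co-treated replicate 3 (0.32, adjusted p = 0.141) and in a model of the compared groups alone (adjusted p = 0.0548), the highest of 9 alternatives that ran from 0.00039. TUBB4B (0.22 ± 0.104, adjusted p = 0.108) was called higher without co-treated replicate 1 (adjusted p = 0.0332) or 2 (adjusted p = 0.00845).

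With ISRIB added to bortezomib, TUBA1A rose 2.45-fold (log2 fold change 1.29 ± 0.400, adjusted p = 0.0292), at 30 to 69 counts per library against 11 to 32. By edgeR 1 of 9 members was called higher, against 6.91% of all genes, and 0 lower, against 5.34%, with 3 higher and 0 lower at an unadjusted p under 0.05 and 1 higher and 0 lower by DESeq2. The member median was 0.17, against 0.01 over all genes, and library totals moved the share of higher calls among all called genes from 56.4% to 40.5%. TUBB2A (0.43 ± 0.162, adjusted p = 0.0776) and TUBB6 (0.88 ± 0.447, adjusted p = 0.208) did not pass, and TUBA4A stood at 0.00. The SE was derived from the estimate and the test statistic, which fails at an estimate of 0, so none is given for TUBA4A. Without mitochondrially encoded genes TUBA4A stood at −0.01 ± 0.319. The TUBA1A call was lost without bortezomib replicate 2 (adjusted p = 0.102) or 3 (0.0832), and without co-treated replicate 1 (0.0537) or 4 (0.12). TUBB2A was called without bortezomib replicate 2 (adjusted p = 0.0382) or co-treated replicate 3 (adjusted p = 0.045). Mitochondrially encoded counts reached 40.2% in co-treated replicate 4, the highest share of any library, and that replicate had the highest TUBA1A level (17 CPM).

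The interaction tests asked whether the change on adding a compound differed with and without bortezomib. For nelfinavir, TUBB4B had a positive interaction (log2 difference 0.50 ± 0.146, adjusted p = 0.0143), since its estimate was −0.27 without bortezomib and 0.22 with it. TUBB2B had a negative one (−1.44 ± 0.503, adjusted p = 0.0399), with estimates of 1.85 without and 0.41 with bortezomib. Thus 1 of 9 members was called higher, against 9.74% of all genes, and 1 lower, against 10%. The TUBB4B call held under all 9 alternatives and without any single library. The TUBB2B call was lost in 11 of 16 fits that left out 1 library, namely DMSO replicates 1, 2 and 4, nelfinavir 1, 2 and 4, bortezomib 1 and 2, and co-treated 1, 2 and 3, with adjusted p from 0.0514 to 0.125. It was also lost with no filter (adjusted p = 0.0559) and in a model of the compared groups alone (adjusted p = 0.0518), while the 9 alternatives ran from 0.0272 to 0.0559. TUBA1C (0.33 ± 0.143, adjusted p = 0.1) was called higher without bortezomib replicate 4 (adjusted p = 0.0314) and without co-treated replicate 1 (adjusted p = 0.0385) or 2 (adjusted p = 0.0494). For ISRIB, edgeR called 0 of 9 members higher, against 2.93% of all genes, and 0 lower, against 1.89%, with 0 higher and 1 lower at an unadjusted p under 0.05 and 0 in either direction by DESeq2. The estimates there ran from −1.23 ± 0.533 for TUBB2B to 0.92 ± 0.578 for TUBA1A. Library totals moved the share of higher calls among all genes called in that interaction from 60.8% to 49.4%.

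The genes that fold and turn over tubulin were described from lists, by counts and medians without a test of the list. Of 20 prefoldin, TRiC and cofactor genes, 13 were called higher and 3 lower with bortezomib against DMSO, beside 27.6% and 25.8% of all genes, with a median log2 fold change of 0.33 against 0 over all genes. With library totals these counts were 5 and 8, beside 11.7% and 49.4% of all genes. TBCA, which binds beta-tubulin during folding, rose by 0.95 ± 0.0724 (adjusted p = 5.72e-13), the TRiC subunit gene TCP1 by 1.10 ± 0.0863 (adjusted p = 1.14e-12) and the prefoldin gene PFDN4 by 0.83 ± 0.0735 (adjusted p = 1.72e-11), while ARL2 (−0.84), TBCB (−0.35) and TBCC (−0.87) fell. In nelfinavir alone, in which 10.4% of all genes were called higher and 8.84% lower, CCT6A (−0.32), CCT2 (−0.28) and PFDN1 (−0.29) were the 3 folding genes called lower and 0 were higher by edgeR, against 1 at an unadjusted p under 0.05 and 0 by DESeq2. With nelfinavir added to bortezomib 3 rose (PFDN5 0.47, TCP1 0.24 and CCT7 0.22) and 3 fell (TBCA −0.58, TBCB −0.52 and PFDN6 −1.04), near the 15.6% and 13.4% of all genes. With ISRIB added, in which 6.91% of all genes were called higher and 5.34% lower, 5 fell, among them TBCA (−0.28), CCT3 (−0.27) and CCT4 (−0.42), and 0 rose by edgeR, at an unadjusted p under 0.05 or by DESeq2.

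Of the 13 autoregulation and CCR4-NOT genes tested, 3 were called higher and 3 lower with bortezomib, near the 27.6% and 25.8% of all genes, with a median of 0.07, and 1 and 8 with library totals (all genes 11.7% and 49.4%). TTC5 fell (−0.70 ± 0.284, adjusted p = 0.0377), from 7.98 ± 0.776 to 4.92 ± 1.05 CPM. SCAPER stood at 34.0 ± 2.61 CPM in DMSO and 35.2 ± 5.14 CPM with bortezomib (0.05 ± 0.155, adjusted p = 0.795). CNOT1, the scaffold of the deadenylase, rose (0.94 ± 0.0982, adjusted p = 7.41e-10), as did CNOT4 (0.74) and CNOT2 (0.45), and CNOT6L (−0.85) and CNOT11 (−0.35) fell. CNOT1 also rose in nelfinavir alone (0.37, adjusted p = 0.00545), fell when ISRIB was added to bortezomib (−0.59, adjusted p = 6.69e-05) and had a negative ISRIB interaction (−0.73, adjusted p = 0.000955). In the other 4 comparisons between groups TTC5 estimates ran from −0.17 ± 0.261 with nelfinavir to 0.34 ± 0.304 with ISRIB added to bortezomib, and those of SCAPER from −0.22 ± 0.160 with nelfinavir added to bortezomib to −0.03 ± 0.159 with ISRIB added, and none passed. With nelfinavir added to bortezomib, CNOT8 (0.66), CNOT6L (0.56) and CNOT6 (0.32) rose.

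Among 13 tested genes of other tubulins and the gamma-tubulin complex, 2 were higher and 3 lower with bortezomib, no more than the 27.6% and 25.8% of all genes, with a median of −0.16, and 1 and 9 with library totals (all genes 11.7% and 49.4%). TUBG1, the nucleating gamma-tubulin, fell (−0.61 ± 0.0926, adjusted p = 1.1e-06), as did TUBGCP3 (−0.53) and MZT2B (−0.34). TUBE1, an epsilon-tubulin of centrioles, rose (0.86 ± 0.240, adjusted p = 0.0031), as did TUBGCP6 (1.00). TUBE1 stood at 5.03 ± 1.09 CPM in DMSO, 17.6 ± 4.27 CPM with nelfinavir (1.81 ± 0.225, adjusted p = 1.99e-07), 9.10 ± 0.649 CPM with bortezomib and 3.88 ± 0.916 CPM with bortezomib plus ISRIB, the last below bortezomib alone (−1.23 ± 0.266, adjusted p = 0.0017). It had negative interactions with both nelfinavir (−1.84, adjusted p = 9.76e-05) and ISRIB (−1.23, adjusted p = 0.0412). In nelfinavir alone TUBG2 rose (0.56) and TUBGCP5 fell (−0.76), and with nelfinavir added to bortezomib TUBGCP4 rose (0.58) and TUBGCP5 (−1.27), NEDD1 (−0.52) and TUBG2 (−0.49) fell. TUBA8 and TUBB4A had 1 count each over the 24 libraries. TUBB1, also not tested, had 12 counts in DMSO, 24 with ISRIB and 7 with nelfinavir, and 0 in each group with bortezomib.

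Of 15 tested tubulin-modifying enzymes, 4 were higher and 3 lower with bortezomib, near the 27.6% and 25.8% of all genes, with a median of 0.15, and 3 and 6 with library totals (all genes 11.7% and 49.4%). AGTPBP1, a deglutamylase, rose (1.39 ± 0.172, adjusted p = 2.84e-08), as did TTLL3 (1.76 ± 0.312, adjusted p = 1.48e-05), and AGBL5 (−1.08) and CCDC23 (−0.55) fell. TTLL7 was called higher on 40 counts with bortezomib against 1 in DMSO, a ratio of 65.8 (95% counting interval 11.2 to 2660). TTLL1 was called lower on 1 count against 21, with the DMSO level 12.8 times that of bortezomib (interval 2.05 to 528). TTLL11 rose in nelfinavir alone (1.5), and with nelfinavir added to bortezomib TTLL4 rose (0.38) and TTLL3 fell (−1.31).

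Of 27 tested genes of microtubule-binding and -severing proteins, 15 were called higher and 6 lower with bortezomib, beside 27.6% and 25.8% of all genes, with a median of 0.49, and 8 and 8 with library totals (all genes 11.7% and 49.4%). MAP1B, a microtubule-stabilizing protein of neurons, stood at 27.6 ± 4.05 CPM in DMSO, 79.8 ± 15.9 CPM with nelfinavir (1.53 ± 0.119, adjusted p = 4.44e-12) and 274 ± 23.1 CPM with bortezomib (3.31 ± 0.122, adjusted p = 3.77e-21). CLIP1 (1.5) and MAP7D1 (1.47) also rose with bortezomib, and STMN1, which sequesters tubulin dimers, fell (−0.87 ± 0.0825, adjusted p = 8.77e-11) from 249.9 ± 20.9 to 136 ± 9.84 CPM, with MAPT (−0.72) and TPX2 (−0.31). In nelfinavir alone 6 of 27 rose and 3 fell, beside 10.4% and 8.84% of all genes, among them CLIP1 (0.73), CAMSAP3 (0.78), TPX2 (−0.44), EML4 (−0.26) and STMN1 (−0.24). With nelfinavir added to bortezomib 3 rose (CAMSAP3 0.72, MAP4 0.38 and CAMSAP1 0.42) and 6 fell, beside 15.6% and 13.4% of all genes, among them EML4 (−0.59), STMN1 (−0.48) and TPX2 (−0.27). With ISRIB added, MAP4 rose (0.32), and 6 fell, beside 6.91% and 5.34% of all genes, among them EML4 (−0.39) and the katanin gene KATNA1 (−0.69).

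For the other filament systems, 5 of 20 actin and intermediate filament genes were called higher and 7 lower with bortezomib, beside 27.6% and 25.8% of all genes, with a median of −0.09, and 2 and 15 with library totals (all genes 11.7% and 49.4%). VIL1 (−1.81), LMNB1 (−1.72) and TPM1 (−1.16) fell, and FLNA (1.35) and ACTG1 (0.40) rose. In nelfinavir alone 8 fell, beside 8.84% of all genes, among them LMNB1 (−0.94), TPM3 (−0.70) and EZR (−0.47), and 0 rose by edgeR, against 1 at an unadjusted p under 0.05 and 0 by DESeq2. With nelfinavir added to bortezomib 3 were called higher, among them TMSB10 (0.55) and LMNB2 (0.31), and 2 lower, PFN1 (−0.61) and TPM3 (−0.28), beside 15.6% and 13.4% of all genes, while DESeq2 called 4 higher and 0 lower. With ISRIB added to bortezomib 7 rose, beside 6.91% of all genes, among them TMSB10 (0.78), ACTN1 (0.62) and TPM4 (0.51), and 0 fell by edgeR, at an unadjusted p under 0.05 or by DESeq2. Of the hepatocyte markers, measured on the same scale, 7 of 10 were lower with bortezomib, among them TTR (−1.49), APOA2 (−0.89) and AFP (−1.26). None of these genes passed with ISRIB alone in edgeR's test, in which 0 of all 12685 genes were called, against 256 higher and 447 lower at an unadjusted p under 0.05 and 1 higher and 20 lower by DESeq2.

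The interaction tests also called genes of these lists, beside 9.74% of all genes higher and 10% lower for nelfinavir and 2.93% and 1.89% for ISRIB. For nelfinavir, 2 folding genes were higher (CCT6A 0.48 and TCP1 0.39) and 2 lower (TBCB −0.67 and TBCA −0.42), near those shares. Of the microtubule-binding genes 4 were lower, among them MAP1B (−1.57) and CLIP1 (−1), and 0 were higher by edgeR, against 2 at an unadjusted p under 0.05 and 0 by DESeq2. Of the actin and intermediate filament genes 7 were higher, among them ACTN1 (0.58), EZR (0.56) and LMNB2 (0.57), and 1 lower (CFL1 −0.32). CNOT6 (0.49) and TUBGCP4 (0.63) were higher, and CNOT1 (−0.38), TUBG2 (−1.05), TTLL3 (−1.94) and TTL (−0.45) were lower. DESeq2 called 0 of the autoregulation and CCR4-NOT genes lower in this interaction, so the call of CNOT1 was lost there. For ISRIB, ACTN1 (0.67), TMSB10 (0.64) and FLNA (0.77) were among 4 filament genes called higher, and CAMSAP3 (−0.8) and EML4 (−0.45) were the 2 microtubule-binding genes called lower.

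Genes were ranked by Pearson correlation of log2 CPM with the mean of each tubulin class over the 24 libraries, which share the 6 treatments. Each member counted once in its class mean whatever its level, so members that moved most, such as TUBA4A and TUBB2B, weighed most. TUBA1B, the most abundant member, ran opposite to TUBA4A (r = −0.48). With the mean of the 5 tested beta-tubulins the closest genes were TRIM11 (r = 0.952), FOSL2 (0.949), VCP (0.946), CDR2L (0.944) and ELF4 (0.942). With the mean of the 4 alpha-tubulins they were ARPC4 (0.921), SDC4 (0.920), PPP1R18 (0.919), ZC3H12A (0.918) and MICB (0.918). Within the family, TUBA4A, TUBB2A, TUBB2B and TUBB6 correlated with one another at 0.84 to 0.87, TUBA1B followed TUBB4B (0.83), and TUBB2B and TUBB4B ran opposite (−0.66), all over the same 24 libraries and given as a description.

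Some members overlap other counted genes on the opposite strand in the GRCh37 models. The span of STK16 covers the last 500 bases of TUBA4A, and that of a noncoding gene, RP11-386G11.10, covers those of TUBA1A and TUBA1B. These are whole spans from GENCODE models, introns included, while reads were counted against Ensembl genes. They do not show that exons overlap or that reads were shared. No source used here states whether counting used strand, and whether reads from such pairs were separated was not tested. STK16 fell with bortezomib (−0.41 ± 0.154, adjusted p = 0.0237), from 23.3 to 17.5 CPM, while TUBA4A rose. RP11-386G11.10 had 44 counts over the 24 libraries, while in the DMSO libraries TUBA1B had 58938 counts and TUBA1A 88. FAM166A, whose span covers 124 of the last 500 bases of TUBB4B, had 1 count over the 24 libraries.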

How the data were processed

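The authors trimmed reads with cutadapt 2.8, aligned them to hg19 with STAR and counted them against Ensembl GRCh37 genes, and the deposited values are unnormalized read counts per gene. The paper names the nf-core RNA-Seq pipeline and the FWD version of the kit. Which program counted, whether it used strand and whether molecular identifiers were read is not given in the sources used here. Counting intervals therefore cover counting error only. Counts were filtered with filterByExpr (minimum count 5, minimum total 25), normalized by TMM, and compared by the quasi-likelihood test of edgeR 4.0.16 (R 4.3.3, all 24 libraries in 1 model) with Benjamini-Hochberg adjustment over 12685 genes. CPM used the same factors, and log2 CPM a prior count of 2. The procedure was tested on simulated data. Errors after ± are SD for levels and SE for fold changes. DESeq2 1.42.0, other scalings and filters, the compared groups alone, a replicate block and each library left out in turn were alternatives. Near copies were alignments of at least 80 bases at 97% identity (BLAST 2.17.0).

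All 10 members were named. From each list, up to 3 called genes per direction and comparison with the smallest p were named, with TTC5 and SCAPER always, and the 5 best correlated genes per class. Some genes that this rule selects are not reported here. The choice of exceptions (TUBA8, TUBB4A, TUBB1 and genes that overlap members) followed their values. The members and lists were chosen with earlier results of these data known. Of the 18915 genes 18304 have a GENCODE model.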

Additional observations from a re-analysis of the deposited data

Results flagged for a closer look

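5 of 54 groups of 4 libraries held 1 library far from the other 3, by the gap to its nearest neighbour over the range of the group, and chance alone gives such a gap in about 1 in 20 groups. ISRIB replicate 3 stood apart for TUBA1C (1437 CPM, next 1030) and for TUBB4B (537.2 CPM, next 459.6). Bortezomib plus ISRIB replicate 4 stood apart for TUBB2B (12.59 CPM, next 7.124) and for TUBB6 (6.171 CPM, next 3.351). DMSO replicate 1 stood apart for TUBA4A (1.162 CPM, next 0.5207), where the counts were 10 and 4. The change on adding nelfinavir differed with and without bortezomib for TUBB2B (log2 difference −1.442) and for TUBB4B (0.495), by edgeR's test of the interaction.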

How the results depend on the processing

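With library totals alone, TUBA1C (−0.306) and TUBB (−0.338) changed direction with bortezomib and were called lower. The number of members called lower with bortezomib was 1 with TMM, 4 with library totals (under which 49.4% of all genes were called lower), and 2 with upper-quartile factors, without mitochondrially encoded genes, with no filter, with the replicate block and in the compared groups alone, and ran from 1 to 2 with 1 library left out. With nelfinavir alone 1 was called lower, against 2 with upper-quartile factors, library totals, DESeq2, no filter, the replicate block and the compared groups alone, and 0 to 1 with 1 library left out. With nelfinavir added to bortezomib 1 was called higher, against 2 with DESeq2 and no filter, 0 in the compared groups alone, and 0 to 2 with 1 library left out. With ISRIB added to bortezomib 1 was called higher, against 2 with no filter and 0 to 2 with 1 library left out. In the nelfinavir interaction 1 was called higher, against 2 with no filter and 1 to 2 with 1 library left out, and 1 lower, against 0 with no filter and in the compared groups alone and 0 to 1 with 1 library left out. The cause was not tested. Of the members' log2 fold changes under the settings that kept all libraries of the groups compared, 526 kept their direction (or stood at 0) and call, 17 gained a call, 4 lost one and 13 changed sign. Apart from TUBA1C and TUBB above, the changes of sign were in estimates near 0 that were not called: TUBA1B with nelfinavir added to bortezomib (0.001 with TMM, and −0.041 with upper-quartile factors, −0.033 with library totals, −0.006 without mitochondrially encoded genes, −0.002 with the default filter, −0.008 with the replicate block and −0.014 in the compared groups alone), TUBA1B with ISRIB added (−0.001 with library totals), and in the ISRIB interaction TUBB2A (−0.002 with RLE factors, −0.026 with library totals and −0.002 with DESeq2) and TUBB4B (−0.005 with library totals). With 1 library left out, 591 kept both, 9 gained a call, 22 lost one and 26 changed sign, none of these called. The latter ran from −0.495 to 0.326 for TUBA4A and from −0.322 to 0.363 for TUBB6 with nelfinavir, from −0.153 to 0.532 for TUBB6 with ISRIB, from −0.069 to 0.098 for TUBA1B with nelfinavir added, from −0.048 to 0.061 for TUBA1C with ISRIB added, from −0.222 to 0.655 for TUBA1A in the nelfinavir interaction, and in the ISRIB interaction from −0.149 to 0.061 for TUBB, −0.106 to 0.183 for TUBB2A and −0.027 to 0.119 for TUBB4B. Of the list counts under the settings that kept all libraries, 687 stayed within 1.5 times and 69 did not, and with 1 library left out 752 did and 112 did not. Replicate numbers share only a number: 10 of 60 same-numbered pairs of libraries correlated above 0.1 after removal of group means, against 7 of 180 other pairs, and 14 of 24 libraries correlated best with their own number, a hint from the data and not the design. In the ISRIB group alone, the replicate numbers do not follow the order of the S labels in the sample titles. What this does to these counts and to the replicate block was not tested. TUBA4A, TUBB2B, TUBB3 and TUBB6 rest on few counts outside bortezomib, which limits what can be seen there.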
